A study of Mus musculus with 25 samples.

Results

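The N1/MAML list holds the places in the mouse genome where Notch1 (N1) and the co-activator MAML were found close together in mK4 cells, a mouse line from embryonic kidney mesenchyme. The authors deposited 16547 regions, and the 16545 on the 19 autosomes and the X chromosome are described here, since 2 regions lay on the Y chromosome. They make up 17.2% of the 96405 distinct fragments that 6 such lists of the series hold between them.

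The assay was split DamID (SpDamID). The bacterial DNA methylase Dam is cut into pieces that do nothing apart, 1 carried by N1 and the other by MAML, and GATC sites gain methyl groups where both pieces come together. The N1/MAML list sets 3 libraries of the pair N1-D and MAML-AM-Ert2 against 3 libraries labelled DAM, the Dam control, with all 6 libraries from mK4 cells of the strain label CD1. Ert2 names a ligand-binding domain of the estrogen receptor, and the labels give no treatment and do not say whether the libraries came from separate cultures or clones.

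Comparison lists came from the same line and the same Dam control. N1-D was paired with RBP-AM-Ert2 or p300-AM-Ert2 in 3 libraries each and with N1-AM-Ert2 in 2 libraries, of which 1 carries the strain label CD2. Mef2c-D was paired with MAML-AM-Ert2 in 1 library, labelled CD3, and with p300-AM-Ert2 in 1 library, labelled CD1. Open chromatin was read by FAIRE in 3 N1wt and 3 control libraries with 1 N1wt input, and N1 was read by ChIP on a myc tag in 1 library with 1 input, all labelled CD1.

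Notch1 is a membrane receptor whose intracellular part is released by cleavage after ligand binding and moves to the nucleus. There it binds RBP (RBP-J, also called CSL), the DNA-binding protein of the pathway, and Mastermind-like proteins (MAML) clamp onto the groove that both form. MAML brings in p300, an acetyltransferase of histones, and the complex switches on targets such as the Hes and Hey repressors, in the kidney as part of how nephron segments are laid out. Mef2c is a MADS-box transcription factor that does not belong to the core Notch complex.

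Every SpDamID list is a set of genomic intervals with 1 pooled score, and no list gives a value per library. The spread between replicate libraries therefore cannot be computed, no test between groups was made, and every interval below is a 95% interval for counting error alone, which treats neighbouring regions as independent although they are not. Intervals of shares are exact binomial (Clopper-Pearson), and intervals of differences combine the bounds of both shares by the square-and-add method. Sequencing depth is unknown. Positions are of build mm9, and no gene annotation or sequence of that build was used here, so regions are given by position. All SpDamID regions were cut from the same set of fragments, and 0 of the 96405 distinct ones overlapped another in part, so a region shared by 2 lists has the same ends in both.

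The N1/MAML regions fell into a short and a long class. The median length was 517 bp, the middle 50% of regions ran from 398 to 862 bp, and the 95th percentile was 2936 bp (2888 to 2997 bp). Regions of 401 to 600 bp were the fullest 200 bp step, with 5950 regions. There were 143 regions at 1201 to 1400 bp and again 457 at 2201 to 2400 bp, so the tail was a second peak and not a slow decline. In all, 3486 regions (21.1%) were longer than 1500 bp and held 57.9% of the 15.7 Mb that the list covers. The 769 regions over 3000 bp (4.65%) held 19.6% of the covered length.

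Of the other N1 lists, N1/p300 had a small second peak, with 0.174% of its regions at 1778 to 1995 bp and 0.429% at 2512 to 2818 bp, while N1/RBP and N1/N1 showed none and thinned out with length. Fragments that a list shares with N1/MAML were counted in both, so these are not separate sets. The share of regions over 1500 bp was 1.47% for N1/RBP, 2.84% for N1/p300 and 11% for N1/N1. The 95th percentile was 1256, 1161 and 1819 bp in that order. Of all 820 distinct fragments over 3000 bp, N1/MAML held 769, or 93.8% (91.9 to 95.3%), and of the 6176 fragments of 1501 to 3000 bp it held 44.0%. By contrast it held 4.47% of the 19622 fragments of 801 to 1500 bp and 14.3% of the 55584 fragments of 401 to 800 bp.

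**Figure D1:**
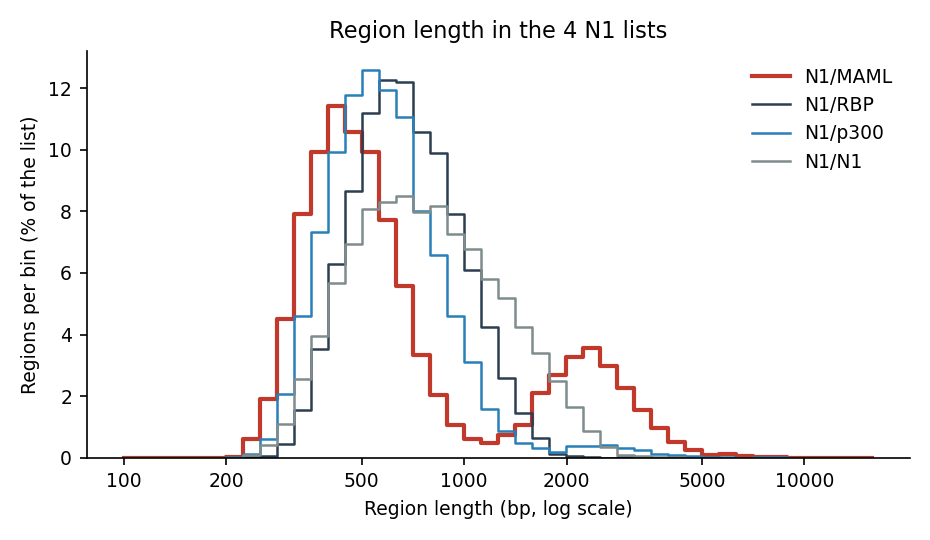
Region length in the 4 N1 lists: length in bp on a log scale against the share of each list's regions per bin in percent, 1 line per list. N1/MAML has a first peak near its median of 517 bp, a trough above 1000 bp and a second peak above 2000 bp, where N1/RBP has almost no regions.

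FAIRE recovers DNA that is not tightly held by nucleosomes. Of the N1/MAML regions, 6276 or 37.9% (37.2 to 38.7%) overlapped a total FAIRE peak, against 19.3% of all distinct SpDamID fragments, a background that includes the N1/MAML regions themselves. Notch-dependent FAIRE peaks, a second deposited list, overlapped 884 regions or 5.34% (5.01 to 5.70%), against 2.8% of all fragments. N1 ChIP overlapped 680 regions or 4.11% (3.81 to 4.42%), against 1.41% of all fragments. The name of the deposited ChIP list calls it repeat-masked, so a region in a repeat may be missing from it whatever its binding. None of these 3 readouts was found at 10036 regions (60.7%). The other N1 lists also stood above the shares over all fragments in their regions up to 1500 bp. Such regions were 98.5% of N1/RBP, 97.2% of N1/p300 and 89.0% of N1/N1. In that order, total FAIRE overlapped 36.4, 38.5 and 36.8% of them, Notch-dependent FAIRE 5.21, 6.61 and 5.07%, and ChIP 2.77, 3.22 and 2.11%. For N1/MAML regions up to 1500 bp, 78.9% of that list, the shares were 45.4, 6.42 and 5.03%. The limit of 1500 bp was chosen after the data were seen and leaves out a larger part of N1/MAML than of the other lists. Of the regions left out, total FAIRE overlapped 9.90% in N1/MAML, 41.2% in N1/RBP, 12.8% in N1/p300 and 23.3% in N1/N1. Shares over the whole of the other N1 lists were not computed, so these values do not rank whole lists. The rule behind the Notch-dependent list is not stated in the labels or headers, and 20 regions overlapped that list but not the total one.

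Long regions were seldom in open chromatin. Total FAIRE overlapped 48.6% of regions up to 400 bp, 44.5% at 401 to 800 bp and 38.0% at 801 to 1500 bp. It then overlapped 10.2% at 1501 to 3000 bp and 8.84% over 3000 bp. A longer interval has more room to meet a peak by position alone, and here the order ran the other way. The difference between regions over 3 kb and those of 400 to 800 bp was -35.7 percentage points (-37.9 to -33.2). Counted by bases, 36.3% of the length of regions up to 1500 bp lay in FAIRE peaks, against 4.11% of the length of longer regions. Over all 6996 distinct SpDamID fragments longer than 1500 bp the share in total FAIRE was 16.1%. For the 3486 long N1/MAML regions, which are themselves 49.8% of those fragments, it was 9.90% (8.93 to 10.9%).

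The other readouts were also rarer on long regions. Notch-dependent FAIRE overlapped 46 of the 3486 long regions (1.32%) and 838 of the 13059 others (6.42%). N1 ChIP overlapped 23 long regions (0.660%) and 657 others (5.03%), and the part of repeat masking in this was not tested. Long regions outside FAIRE lay a median of 52.1 kb from the nearest peak, and shorter ones 17.5 kb. The median score was 285 for long and 389 for shorter regions, and the X chromosome held 4.53% of the long and 2.0% of the shorter ones. The gap in FAIRE was present at every level of score. Across the 4 score quartiles, from lowest to highest, long regions overlapped total FAIRE at 8.25, 10.7, 11.8 and 9.46%, and shorter ones at 33.5, 39.1, 44.3 and 61.6%. The share was thus higher in each higher quartile among short regions and between 8.25 and 11.8% among long ones.

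**Figure D2:**
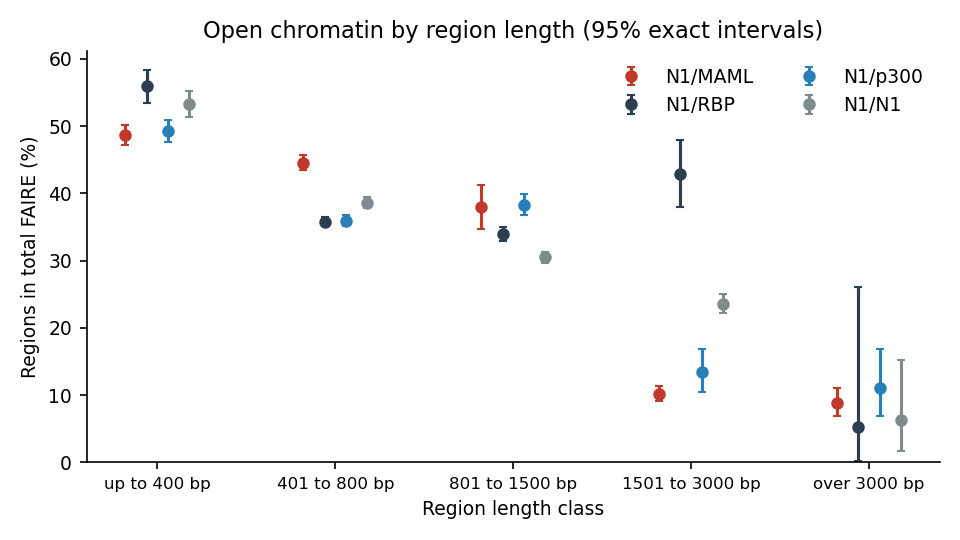
Share of regions that overlap a total FAIRE peak, in percent, by region length class for the 4 N1 lists, with exact 95% intervals. N1/MAML drops from 38.0% at 801 to 1500 bp to 10.2% at 1501 to 3000 bp, a class where N1/RBP stands at 42.9%, N1/N1 at 23.6% and N1/p300 at 13.4%. Median lengths within this class differ between lists, from 1622 bp in N1/RBP to 2226 bp in N1/p300.

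The same length class stood at different levels in different lists. At 1501 to 3000 bp, total FAIRE overlapped 42.9% of 396 fragments in N1/RBP, 23.6% of 3437 in N1/N1 and 13.4% of 463 in N1/p300, against 10.2% of 2717 in N1/MAML. Median lengths within this class were 1622, 1779, 2226 and 2212 bp in that order, and their part in these shares was not tested. N1/p300 was the list nearest to N1/MAML here, and fragments that both lists hold were not taken out. Over 3000 bp the share was 5.26% of 19 fragments in N1/RBP and 6.25% of 64 in N1/N1. It was 11.1% of 171 in N1/p300 and 8.84% of 769 in N1/MAML.

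N1/MAML regions were found along all 20 chromosomes, most thickly on chromosome 19. The density on the autosomes ran from 4.35 regions per Mb on chromosome 14 to 11.5 per Mb on chromosome 19, and the X chromosome had 2.56 per Mb, with 419 regions. The share of the fragment map varied less: N1/MAML took 14.8 to 19.9% of the distinct fragments of each autosome and 15.6% of those on X. The regions on X lay outside the range of the autosomes in the shares that follow, which are not set against all fragments on X. Of these, 37.7% were over 1500 bp, against 13.7 to 33.2% on the autosomes, and 53.9% were in no other N1 list, against 28.0 to 39.4%. Total FAIRE overlapped 22.2% of the regions on X and between 27.6% (chromosome 15) and 51.0% (chromosome 19) of those on an autosome.

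Within chromosomes the regions were unevenly spread. Of 2388 windows of 1000000 bp with any SpDamID fragment, 2093 (87.6%) held an N1/MAML region, with a median of 6 and a maximum of 86. The densest 10% of windows (239) held 35.5% of the regions. The densest window began at 126000001 on chromosome 8, in a stretch of 3 Mb with 185 regions. Of these 185, 35.7% (28.8 to 43.0%) were in total FAIRE, against 40.5% of the others on that chromosome, and 24 were in ChIP. Window and stretch both hold 52 nearly equal pieces from 126060796 to 126149225, described below, of which 0 were in total FAIRE. The share without these 52 was not computed, so 35.7% does not describe the rest of the stretch. On chromosome 5, 132 regions lay in a stretch of 2 Mb that holds the window from 140000001. Of these 132, 40.9% (32.4 to 49.8%) were in total FAIRE, against 35% of the others, and 20, or 15.2% (9.51 to 22.4%), were in ChIP. The next dense stretch had lower shares in total FAIRE and in ChIP. On chromosome 15, 196 regions (21.3% of the 921 on that chromosome) lay between 10 and 13 Mb. There 123 of the 196 were over 1500 bp and 96 were in no other N1 list. Total FAIRE overlapped 7 of the 196, or 3.57% (1.45 to 7.22%), against 34.1% of the other 725 regions of the chromosome, and the stretch held 8 total FAIRE peaks in all. N1 ChIP overlapped 1 of the 196, or 0.510% (0.0129 to 2.81%). All 5 other SpDamID lists were dense there too, where N1/RBP had 181 regions, N1/p300 196 and N1/N1 256, while Mef2c/MAML had 467 and Mef2c/p300 372. The number of copies of this stretch in mK4 cells was not tested.

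Regions near to each other were more often in open chromatin. The median gap between neighbouring N1/MAML regions was 41.2 kb, against 15.4 kb for N1/RBP, 22.4 kb for N1/p300 and 14.2 kb for N1/N1, lists that hold more regions. With a gap of at most 5 kb counted as a cluster, 38.8% (38.0 to 39.5%) of N1/MAML regions had a neighbour, against 57.8, 51.3 and 57.5% in the 3 other lists. The 16545 regions formed 12699 clusters, of which 10128 were single regions. Total FAIRE overlapped 28.0% of single regions, 48.3% of those in pairs, 59.8% of those in clusters of 3 to 4 and 68.3% of those in clusters of 5 to 9. From single regions to clusters of 3 or more, the share in total FAIRE was higher by 32.3 percentage points (30.2 to 34.3), and neighbours under 1 FAIRE peak count separately here. Within each score quartile from lowest to highest, clusters of 3 or more stood at 48.4, 54.0, 58.8 and 70.2%, and single regions at 19.2, 25.1, 29.2 and 43.4%.

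The 2 other readouts followed the same order of cluster size up to 3 or more. Notch-dependent FAIRE overlapped 4.06% of single regions and 8.14% of those in clusters of 3 or more, and N1 ChIP 2.84% and 6.90%. Of single regions 42.9% were in no other N1 list, against 16.3% in clusters of 3 or more. The 5 clusters of 10 or more regions, 105 regions in all, broke the order, with 31.4% in total FAIRE (22.7 to 41.2%). One array on chromosome 8, described next, gave 52 of these 105 regions. Of the 92 clusters of 5 or more, 22 had every region in total FAIRE and 6 had none.

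The cluster with most regions ran from 126060796 to 126158486 on chromosome 8 and held 58 regions over 97.7 kb, with a mean score of 553 ± 88.7 (SD over its 58 regions). Its first 52 regions, up to 126149225, formed an array of nearly equal pieces. Their lengths ran from 1141 to 1967 bp, and 46 of the 51 steps from start to start were within 5% of 1697 bp. Their N1/MAML scores ran from 348 to 696 with a median of 563.5. Of these 52 fragments 27 were also in N1/p300, at scores of 17 to 543, and 1 was in N1/RBP at a score of 37. None was in N1/N1, in the Mef2c lists, in FAIRE or in the repeat-masked ChIP list. Even steps of this kind are the layout that tandem repeats have, and short reads from a repeat cannot be placed in a single copy. How such reads were placed is not stated in the labels or headers, and whether this stretch is a repeat was not tested.

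A second array, on chromosome 4 from 88418785 to 88452570, held 9 regions of 1594 to 1600 bp with 5 of 8 steps within 5% of 2926 bp. All 9 were in no other list of the 6, with N1/MAML scores of 302 to 585. In contrast to the chromosome 8 array, all 9 overlapped a total FAIRE peak, with MACS scores of 149 to 503, while none was Notch-dependent or in ChIP. The doubt about repeats and the placing of reads holds for these 9 nearly equal pieces as well, for their FAIRE peaks as for their scores.

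The other 4 of the 5 fullest clusters were of the common, open kind or mixed. On chromosome 19, 12 regions lay at 9056959 to 9067417 with 8 in total FAIRE, and 11 regions lay at 44815660 to 44833645 with 8 in total FAIRE and 3 in ChIP. On chromosome 5, 12 regions lay at 143569565 to 143583698 with 11 in total FAIRE and 4 in ChIP. On chromosome 11, 12 regions lay at 96147433 to 96176845 with 2 in total FAIRE and 1 in ChIP.

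Each N1/MAML fragment can be sorted by the other N1 lists that hold it. N1/RBP held 8366 of the regions, which is 50.6% of N1/MAML and 29.6% of N1/RBP. N1/p300 held 8629, which is 52.2% of N1/MAML and 38.6% of N1/p300. N1/N1 held 7987, which is 48.3% of N1/MAML and 25% of N1/N1. These lists share the Dam control and the N1-D partner, and their overlap is given as a count. In no other N1 list were 5660 regions (34.2%), in 1 other 2518 (15.2%), in 2 others 2637 (15.9%) and in all 4 N1 lists 5730 (34.6%). The share in no other N1 list depended on length: it was 11.3% among regions of 400 to 800 bp and 21.1% among those of at most 1500 bp, a limit chosen after the data were seen.

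Regions in no other N1 list were longer, lower in score and less often in open chromatin than those in all 4. They may still be in a Mef2c list, as the 3 with the highest scores were in Mef2c/MAML. Their median length was 1591 bp, and 51.4% were over 1500 bp, against a median of 521 bp and 0.436% for regions in all 4 lists. The median N1/MAML score was 261 against 486. Total FAIRE overlapped 16.6% (15.7 to 17.6%) of the regions in no other N1 list and 60.2% (58.9 to 61.4%) of those in all 4, with 31.5 and 41.5% for regions in 1 and 2 others. The difference between the ends was -43.5 percentage points (-45.1 to -41.9). Outside FAIRE, the median distance to the nearest peak was 42.3 kb for regions in no other N1 list and 12 kb for those in all 4.

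The Notch-dependent share also followed the number of lists. It was 2.03% (1.68 to 2.43%) for regions in no other N1 list, 3.85 and 5.38% with 1 and 2 others, and 9.25% (8.51 to 10.03%) in all 4, a difference of -7.22 percentage points (-8.07 to -6.38) between the ends. N1 ChIP overlapped 2.46% (2.07 to 2.89%) of the regions in no other N1 list and 5.29% (4.72 to 5.90%) of those in all 4, a difference of -2.83 points (-3.56 to -2.12). The ChIP difference was smaller without the long regions. Among regions of at most 1500 bp it was -0.695 points (-1.67 to 0.329), an interval that includes 0, and it was -1.39 points when each list was taken from its median score up.

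The FAIRE order was the same within each score quartile and within each length class up to 3000 bp. Within the score quartiles from lowest to highest, total FAIRE overlapped 13.7, 17.1, 19.6 and 21.5% of regions in no other N1 list and 54.2, 55.1, 54.3 and 67.3% of those in all 4. Among regions up to 400 bp the shares were 34.9 and 67.3%, among those of 401 to 800 bp they were 14.5 and 58.3%, and among those of 801 to 1500 bp they were 8.74 and 66.8%. Of the longer regions, few were in all 4 lists. At 1501 to 3000 bp the shares were 9.03% of 2293 and 56.3% of 16 regions, and over 3000 bp total FAIRE overlapped 8.44% of 616 and 0 of 9 regions, which allows a share of up to 33.6%. Among regions in no other N1 list, the FAIRE share was thus lower at each step of length up to 801 bp and stood between 8.44 and 9.03% in the 3 length classes above it. Score went with membership as well: the share in no other N1 list was 53.7, 43.2, 29.4 and 10.5% from the lowest to the highest quartile.

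**Figure D3:**
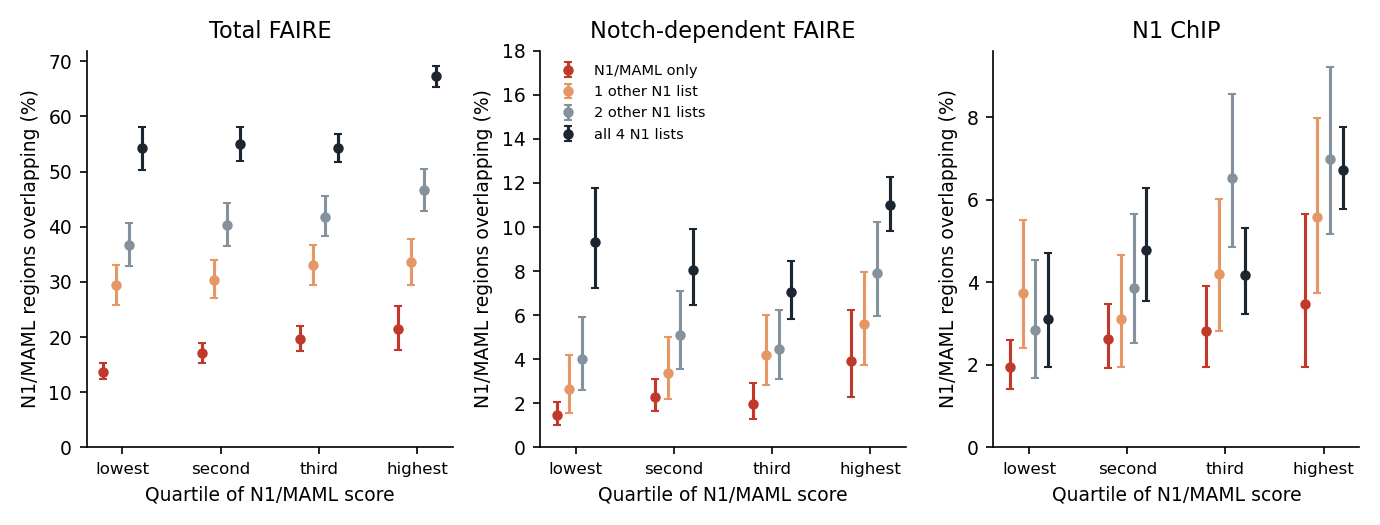
Share of N1/MAML regions that overlap total FAIRE, Notch-dependent FAIRE and N1 ChIP, in percent, by quartile of N1/MAML score and by how many other N1 lists hold the region, with exact 95% intervals. In total FAIRE the 4 classes keep the same order in every quartile, from 13.7 against 54.2% in the lowest to 21.5 against 67.3% in the highest, while the ChIP intervals overlap in most places.

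The Notch-dependent share differed by which other list held the region. With N1/p300 as the only other list it was 5.99% (4.66 to 7.56%, 1102 regions), with N1/RBP alone 1.59% (0.848 to 2.70%, 819 regions) and with N1/N1 alone 3.02% (1.80 to 4.72%, 597 regions). Adding N1/RBP to N1/p300 gave 6.35% of 977 regions and adding N1/N1 to N1/p300 gave 7.32% of 820, while N1/RBP with N1/N1 but without N1/p300 gave 2.38% (1.46 to 3.65%) of 840. Total FAIRE was ordered otherwise: it overlapped 31.0% of the regions shared with N1/p300 alone, 38.5% with N1/N1 alone and 26.9% with N1/RBP alone. Median N1/MAML scores moved with p300 too, at 411 with N1/p300 alone, 334 with N1/N1 alone and 279 with N1/RBP alone, and the part of score in this order was not tested.

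**Figure D4:**
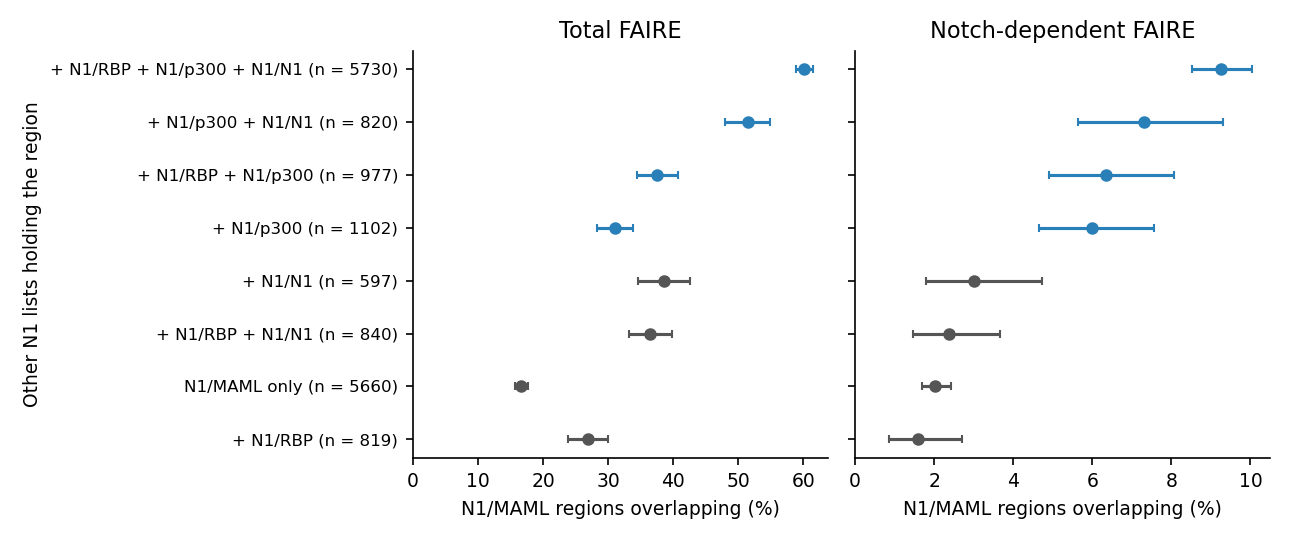
Share of N1/MAML regions that overlap total FAIRE (left) and Notch-dependent FAIRE (right), in percent with exact 95% intervals, for the 8 sets of other N1 lists that hold the region. Blue points are the 4 sets with N1/p300, and all 4 have a Notch-dependent share of 5.99% or more, against 3.02% or less for the 4 grey sets without it.

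From the side of open chromatin, 5017 of the 19353 total FAIRE peaks on these chromosomes, or 25.9% (25.3 to 26.5%), held an N1/MAML region. Of these, 3913 held 1 region, 881 held 2 and 223 held 3 or more, up to 10 in a single peak. By quartile of the peak's MACS score the share was 18.6, 23.2, 28.0 and 33.8% from lowest to highest, and peak length moved with it, from a median of 726 to 1166 bp, a part that was not tested. For N1/MAML regions in FAIRE, the median MACS score of the peak was 173 for those in no other N1 list and 208 for those in all 4, against 157 over all peaks. A peak with more than 1 region counts once per region in the first 2 medians and only once in the last.

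Over the whole list, regions of higher score were more often open, and fewer of them were long. The share over 1500 bp was 29.3% in the lowest and 12.5% in the highest score quartile. Among regions over 1500 bp, the share in total FAIRE stood between 8.25 and 11.8% in all 4 quartiles. From the lowest to the highest quartile of N1/MAML score, total FAIRE overlapped 26.1, 32.2, 38.4 and 55.1% of regions, Notch-dependent FAIRE 3.31, 4.31, 4.64 and 9.12%, and N1 ChIP 2.54, 3.42, 4.2 and 6.29%. Scores ran from 1 to 870 with a median of 366, and 129 regions scored below 10.

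All 680 regions in N1 ChIP had a ChIP interval with the same ends, and their median ratio of ChIP to input was 15.1, against 15 over all 22306 ChIP regions. Of these 680 regions 467 were also in total FAIRE and 213 were not, and 14 were in Notch-dependent FAIRE. Over all 16545 N1/MAML regions, 37.9% were in total FAIRE and 5.34% in Notch-dependent FAIRE. The 467 were a larger part of the 680 than the first share, and the 14 a smaller part than the second. In 533 of the 680 the deposited input was the fixed value 0.1, so their ratio follows from the ChIP signal alone.

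The 10 regions with the highest N1/MAML score came from 3 places. Of these, 5 made up a stretch on chromosome 11, 4 belonged to a stretch on chromosome 2, and the tenth was chromosome 15, 83868719 to 83871479, a region of 2761 bp with a score of 793.

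The chromosome 2 stretch, from 26315080 to 26322115, held 7 regions with N1/MAML scores of 852, 721, 792, 863, 845, 865 and 791 in order of position. N1/N1 scored the same 7 fragments at 649 to 851, and N1/RBP and N1/p300 scored 6 of them, at 130 to 833 and 421 to 830. Mef2c/MAML scored 2 of them, at 167 and 119. Of the 7 regions 6 overlapped both total and Notch-dependent FAIRE, and 5 were in N1 ChIP, with ratios of 163, 30.1, 14.5, 43.3 and 305. Every N1 pair and all 3 readouts thus have signal in the stretch, and it gave 5 of the 14 regions that were in both Notch-dependent FAIRE and ChIP. The next by score in that group were at 152567255 to 152567632 on chromosome 2 (740), 114270036 to 114270378 on chromosome 8 (713) and 147504065 to 147504458 on chromosome 5 (670), each in all 4 N1 lists. RefSeq (GRCm38.p6) places the Notch1 gene on chromosome 2, and whether this stretch lies in that gene was not tested here. The SpDamID cells carry N1 as a fusion and ChIP used a tagged N1, and whether reads from introduced N1 DNA add to these scores, peaks and ratios was not tested.

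The chromosome 11 stretch, from 50071425 to 50080145, had the same height of N1/MAML score and almost none of the rest. Its 5 regions scored 870, 821, 852, 869 and 817 in order of position. The other MAML list, Mef2c/MAML, scored the same fragments at 800, 631, 736, 809 and 761. N1/N1 scored 2 of them, at 204 and 178, and N1/RBP, N1/p300, Mef2c/p300 and FAIRE held none. In ChIP 1 of the 5 was found, a fragment of 157 bp with a ratio of 13. The nearest total FAIRE peak was 23.8 to 31.0 kb away. Both lists that hold all 5 regions have MAML as a partner, and RefSeq places Maml1, the gene of a MAML protein, on chromosome 11. Whether the stretch lies in that gene, and whether reads from the introduced MAML fusion give these 5 scores, was not tested, so they may not mark sites of the complex.

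**Figure D5:**
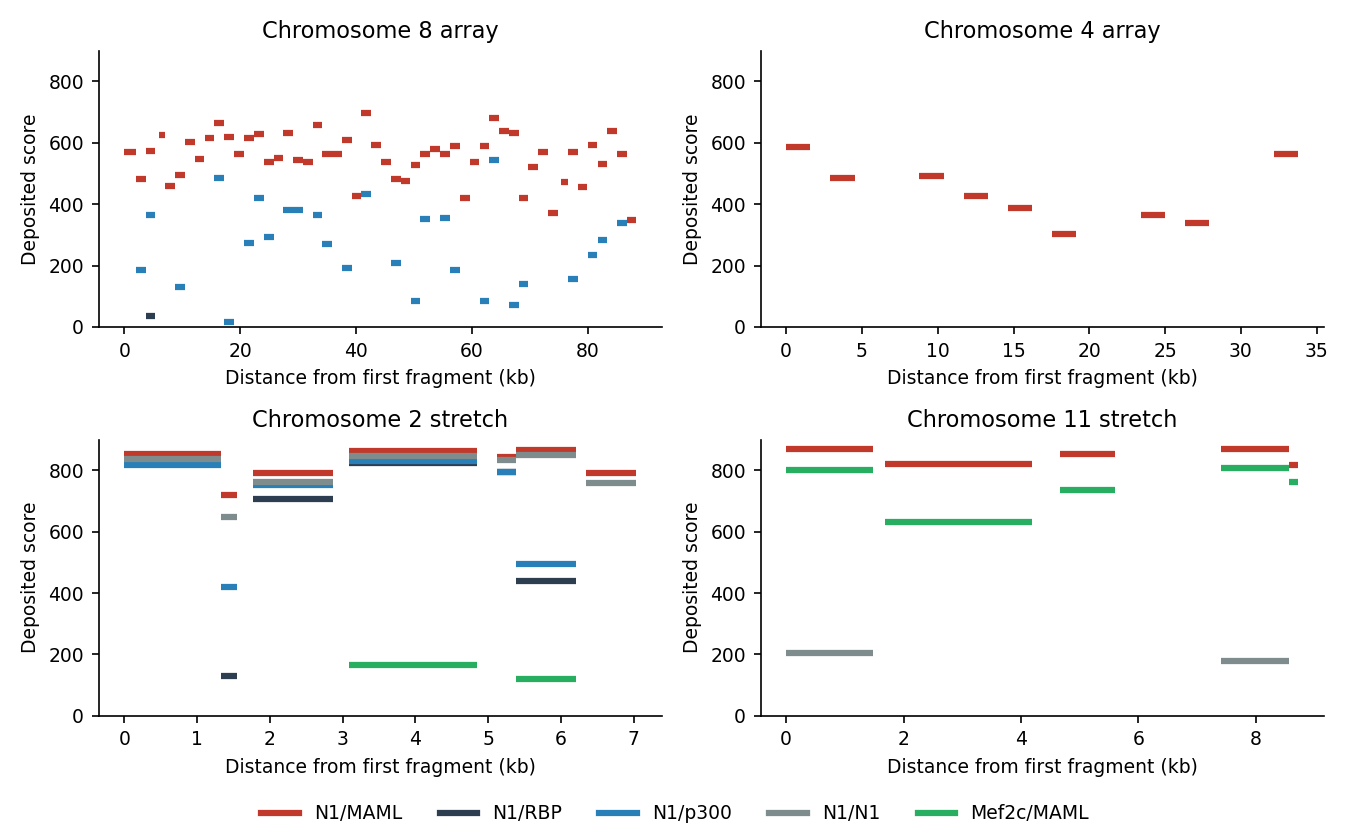
Deposited score of each fragment (vertical axis) along 4 stretches, as distance in kb from the first fragment, with 1 colour per list and each bar as long as its fragment. On chromosome 8, 52 even pieces have N1/MAML scores of 348 to 696, partly with N1/p300, on chromosome 4 only N1/MAML is present, on chromosome 2 the 4 N1 lists lie together near the top in most fragments, and on chromosome 11 N1/MAML is joined by Mef2c/MAML at 631 to 809.

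After the chromosome 11 stretch, which gave 3 of the 5 highest scoring regions in no other N1 list, came 41725380 to 41726154 on chromosome 14 (score 736, in ChIP at a ratio of 15.1) and 4085808 to 4086447 on chromosome 16 (score 702). Neither was in FAIRE, with the nearest peak 53.8 and 55.8 kb away.

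The 5 longest regions were far longer than the second peak of the length distribution, and none overlapped FAIRE or ChIP. They were 13448818 to 13499547 on chromosome 17 (50730 bp, score 708), 166527100 to 166577698 on X (50599 bp, 472), 71610493 to 71641243 on chromosome 7 (30751 bp, 734), 3013072 to 3038679 on chromosome 9 (25608 bp, 493) and 131574779 to 131592127 on X (17349 bp, 709). No sequence of the build was used here, so whether these 5 hold unsequenced bases, where no peak can be called, was not tested. All 5 were also in N1/p300, at scores of 352 to 707, and the region on chromosome 7 and the shorter of both on X were in all 4 N1 lists. The region on chromosome 9 lay in a run of 8 N1/MAML regions from 3000003 to 3077409, at the start of that chromosome's sequence, with scores of 92 to 610 and 7 of the 8 in N1/p300. Across 16 chromosomes, 48 regions started in the first 3.2 Mb, of which 33 were over 1500 bp and 5 were in total FAIRE. Over the whole list 21.1% of regions were over 1500 bp and 37.9% were in total FAIRE. How much of each 3.2 Mb is sequenced was not tested, so the 48 regions give no density.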

How the data were processed

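The authors deposited, for each SpDamID complex, regions with a whole-number score over the Dam control, kept at a confidence of 0.999 or more, per the file headers. What a unit of this score means is not stated. Lists were matched to complexes by initials, since no label spells their short names out. FAIRE peaks carry the deposited MACS score from Galaxy, per the file headers. The deposited ChIP table has no header, is repeat-masked by its name, and gives a signal for ChIP, a signal for input and their ratio, columns told apart by that quotient. Build mm9 is named in the submitters' processing notes, while the aligner is not given in the sources used. With no value per library, depth is unknown and replicates cannot be compared.

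Here, FAIRE starts were moved by 1 bp to 1-based positions and the 19 autosomes and X were kept. An overlap of 1 bp counted as shared, and a gap of at most 5 kb joined a cluster. Intervals at 95% are Clopper-Pearson for shares (scipy 1.17.1, Python 3.11.15) and square-and-add from those bounds for differences, and cover counting error. The overlap code was compared with plain loops on simulated intervals, with 0 differences in 3030 cases, and clusters were compared by their number only. Regions named are the 10 with the highest score, the 5 highest in no other N1 list, the 5 longest, the 5 fullest clusters and the 5 highest in both Notch-dependent FAIRE and ChIP. The regions ranked after these, and the arrays and stretches, were chosen after their values were seen. Gene annotation of named regions was planned, but no mm9 annotation was used here. Members, lists and classes were chosen with earlier results of these data known. Alternatives were other overlap rules, gaps, score and length limits, merged neighbours and autosomes alone.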

Additional observations from a re-analysis of the deposited data

How the results depend on the processing

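No paired analysis was possible because the lists pool their libraries and give no value per library, and for the same reason no replicate could be left out. Of 73 alternative values for 11 results, 25 moved by less than the counting error of the reported value and 48 moved by more. A direction exists only for the 5 differences, and 0 of their 36 values changed it. The centre and 50% overlap rules left both ChIP results at the reported value in all 4 cases, as they must where ChIP and SpDamID regions have the same ends. The cause of these moves was not tested. With autosomes alone all 11 results, and with ChIP regions of at least 300 bp both ChIP results tried, stayed within that error. The share of regions in total FAIRE, 37.9% as reported, was 31.8% by region centre, 32.6% with 50% overlap of the smaller region, 46.5% from the median score up, 36.0% with adjoining regions merged, 44.5% for regions of 400 to 800 bp and 45.4% for regions of at most 1500 bp, the one limit added after the data were seen. In the same order without merging, the Notch-dependent share of 5.34% was 4.41, 4.55, 6.82, 5.75 and 6.42%. The N1 ChIP share of 4.11% was 5.23% from the median score up, 4.55% at 400 to 800 bp and 5.03% at most 1500 bp. The share in no other N1 list, 34.2%, was 31.9% from the median score up, 35.1% merged, 11.3% at 400 to 800 bp and 21.1% at most 1500 bp.

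The difference in total FAIRE between regions in no other N1 list and in all 4 was -39.3 points by centre, -38.2 with 50% overlap and -35.5 at most 1500 bp. For Notch-dependent FAIRE it was -6.00, -5.96 and -6.18 points, and -8.47 from the median score up. For ChIP it was -1.39 points from the median score up, -3.98 merged, -2.04 at 400 to 800 bp and -0.695 at most 1500 bp. The 95th percentile of length was 2857 bp from the median score up and 3051 bp merged. The difference in total FAIRE between regions over 3 kb and those of 400 to 800 bp was -29.1 points with 50% overlap, -41.2 from the median score up and -32.3 merged. The share with a neighbour was 33.7% from the median score up, 28.0% merged, 29.4% at 400 to 800 bp, 42.1% at most 1500 bp, and 28.4 and 56.6% with gaps of 1 and 20 kb. The difference between clusters of 3 or more and single regions was 27.1 points by centre, 27.1 with 50% overlap, 28.1 from the median score up, 25.5 merged, 22.0 at 400 to 800 bp, 27.6 at most 1500 bp, and 35.4 and 24.8 with gaps of 1 and 20 kb. What depth limits is unknown, since the lists give none.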
